A study of Mus musculus with 6 samples.

Results

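Erythroid and heme synthesis genes were examined in sorted splenic red pulp macrophages, the cells that engulf aged red blood cells and recycle their iron. The 36 members were chosen by name: 8 enzymes of heme synthesis, 6 transporters and translocator proteins that serve the pathway, 4 globins with the globin chaperone Ahsp, 5 membrane and membrane skeleton genes, 5 blood group and other erythroid genes, 2 carbonic anhydrases, and 4 erythroid transcription factors with the erythropoietin receptor. A named probe was present for 34 of the 36 (39 probes), and 33 were tested among 18405 genes and transcripts. Hbb-bs and Ahsp had no named probe. Sptb, the erythroid beta spectrin, was not well above background on any of the 6 arrays and is given no fold. Each of the 33 tested members was well above background on 6 of 6 arrays.

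All animals were C57BL/6 mice aged 8 to 9 weeks. Bach2, a transcriptional repressor whose DNA binding is regulated by heme, was deleted in 3 of them, and the other 3 were wild type. Whether the deletion was in the germ line or in 1 cell type is not given in the sources used here. Cells were sorted by flow cytometry, and the RNA of each mouse was amplified, labelled with 1 dye and hybridised to 1 array. All 6 arrays lay on 1 slide. Row 1 carried the wild-type arrays and row 2 those of the knockout, and these 2 factors cannot be told apart. Each of columns 1, 2 and 3 held 1 mouse of each genotype. Replicate numbers here equal the column number, so column and mouse cannot be told apart either. Wild-type replicate 3 was female, the other 5 mice were male, and replicate 3 of each genotype carries the tag P6, whose meaning is not stated. Levels are log2 of the processed signal after subtraction of the array's 75th percentile, differences are in log2, and levels of different genes are not compared because probes differ in brightness.

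Between 37.5% and 51.5% of spots on an array were well above background. The red pulp macrophage genes Spic, Vcam1 and Adgre1 were well above background on 6 of 6 arrays, Spic at 5.53 to 6.67. Bach2 itself read -0.90, 0.02 and -1.35 in wild type and -2.24, -3.72 and -1.15 in knockout, so replicate 3 of the knockout overlapped wild type. This probe was well above background on 5 of 6 arrays. Its level on knockout replicate 2 was below the lowest spot well above background there, at -2.32. Whether the probe lies in the deleted part is not given in the sources used here, so it does not check the labels. A second Bach2 probe was well above background on 0 arrays.

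Heme is built in a chain of reactions that starts in the mitochondrion with an aminolevulinate synthase, passes through the cytosol and ends in the mitochondrion, where ferrochelatase inserts iron. Alas1 encodes the synthase of most tissues and Alas2 that of erythroid cells, where GATA1 and KLF1 switch on the globin, heme and membrane genes together. Developing erythroblasts mature in contact with macrophages, which support them and engulf their expelled nuclei. In a bulk sample, fewer cells of a type and less RNA per cell cannot be told apart.

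The region before the start site is shown for the 2 synthases and for Klf1 and Gata1. The tested probes of the synthases differed in pattern over the arrays, while Alas2, Klf1 and Gata1 had the same 3 arrays highest. A dimmer Alas1 probe had column 1 highest, as Alas2 did, so the contrast rests on 1 of 2 Alas1 probes. The 250 bases upstream of the start are given 5′ to 3′ in the direction of the gene, from RefSeq on GRCm38.p6. Capitals mark the letters AGATAA or TGATAA, the core bound by GATA factors, and CCNCNCCC, the core bound by Klf factors, on either strand. Adjacent matches of the Klf letters overlap in Alas2. For Alas1, which has 2 windows, the one farther upstream is shown. The 250 upstream bases of the other held 2 Klf matches and 0 GATA matches.
Alas1 upstream, chr9:106247955-106248204, minus strand: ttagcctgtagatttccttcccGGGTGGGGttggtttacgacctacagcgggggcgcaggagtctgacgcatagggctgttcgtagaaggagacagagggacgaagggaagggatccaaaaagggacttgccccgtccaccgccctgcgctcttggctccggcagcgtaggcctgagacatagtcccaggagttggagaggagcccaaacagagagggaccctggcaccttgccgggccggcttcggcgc
Alas2 upstream, chrX:150547167-150547416, plus strand: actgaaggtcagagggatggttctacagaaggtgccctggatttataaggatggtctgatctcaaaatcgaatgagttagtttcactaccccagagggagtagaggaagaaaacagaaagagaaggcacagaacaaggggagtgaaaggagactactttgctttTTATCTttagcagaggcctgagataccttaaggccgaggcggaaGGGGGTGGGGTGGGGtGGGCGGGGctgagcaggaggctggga
Klf1 upstream, chr8:84901732-84901981, plus strand: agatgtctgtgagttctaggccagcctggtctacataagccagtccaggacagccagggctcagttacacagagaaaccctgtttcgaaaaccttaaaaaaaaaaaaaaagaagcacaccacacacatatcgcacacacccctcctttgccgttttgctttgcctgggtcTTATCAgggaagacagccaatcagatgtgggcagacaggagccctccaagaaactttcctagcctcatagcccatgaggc
Gata1 upstream, chrX:7967911-7968160, minus strand: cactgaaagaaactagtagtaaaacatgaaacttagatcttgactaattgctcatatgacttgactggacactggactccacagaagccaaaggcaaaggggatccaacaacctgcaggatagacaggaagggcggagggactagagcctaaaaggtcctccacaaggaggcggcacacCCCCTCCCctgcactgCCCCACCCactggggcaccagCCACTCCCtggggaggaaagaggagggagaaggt

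The Alas2 stretch held 1 GATA match and 4 Klf matches, the Klf1 stretch 1 GATA match, the Gata1 stretch 3 Klf matches and the Alas1 stretch 1 Klf match. RefSeq windows of 250 bases before to 50 after the start were at hand for 28 of the 36 members (32 windows). GATA letters were in 16 of the 32 windows (50%), against 18.6% of 32851 windows of all genes. Klf letters were in 21 (65.6%), against 49.5%. The letters TGANTCA, part of the Maf recognition element that Bach2 and its small Maf partners bind, were in 3 member windows (9.4%), those of Hbb-bs, Kel and Trim10, against 7.8% of all. A match describes letters in these windows and shows no bound site.

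The members varied more between mice of 1 genotype than between genotypes. Their median SD over 3 mice was 1.86 in wild type and 1.43 in knockout, against 0.61 and 0.64 over all 18405 entries. Replicate 1 of both genotypes was high, replicate 2 of the knockout was intermediate, and replicates 2 and 3 of wild type and 3 of the knockout were low. Both column 1 arrays lay above the other 4 for 28 of 33 members, against 15.1% of all entries. Both conditions, column 1 highest and replicate 2 of the knockout next, held for 25 of the 33 members, against 8.87% of all entries. Among the entries with column 1 highest, replicate 2 of the knockout came next for 25 of 28 members and for 1632 of 2775 entries. The order counted here was taken from the members' own values, so these counts describe the members and test nothing. The mean of column 1 exceeded that of the other 4 arrays by a median of 2.51 over the members, where the same median over all entries was -0.13.

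**Figure D1:**
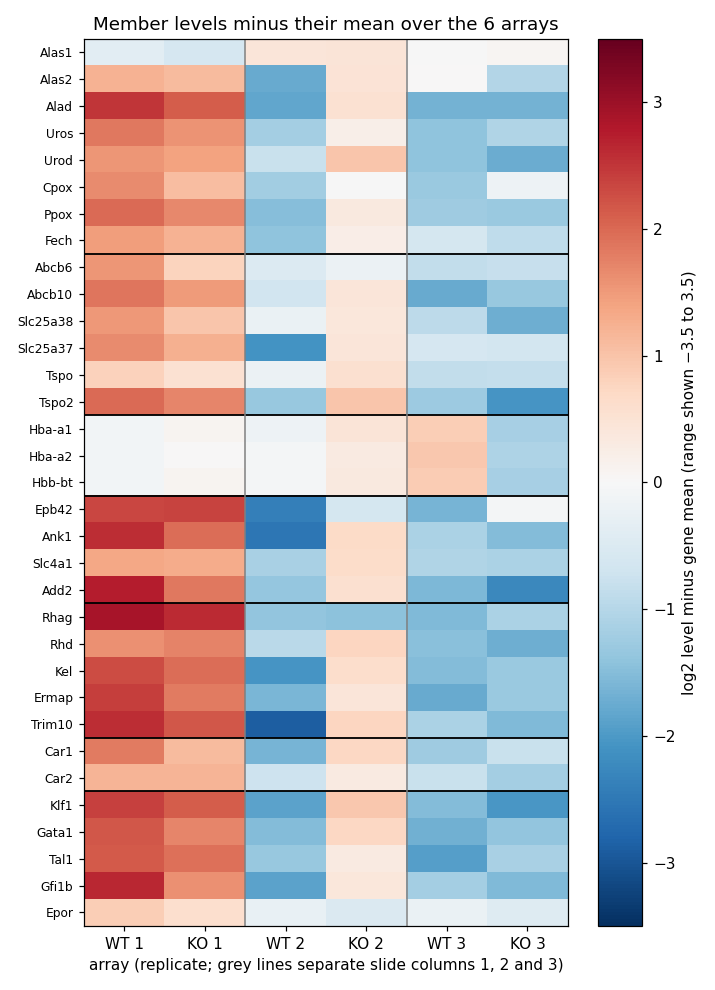
Each row is a tested member and each column an array, coloured by the log2 level minus the mean of that gene over the 6 arrays; black lines separate the gene groups and grey lines the slide columns. WT 1 and KO 1 are high for 28 of 33 members, KO 2 is next for 25, and Alas1 and the 3 globins look different.

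The heme synthesis enzymes followed this order with 1 exception. Alad, which joins aminolevulinate into porphobilinogen, read 6.44, 2.12 and 2.28 in wild type and 6.05, 4.49 and 2.30 in knockout. Column 1 was 10.9-fold above the other arrays for this gene, and the difference between columns 1 and 2 alone was 2.94 ± 0.75 (SE). Uros, uroporphyrinogen III synthase, read 6.14, 3.12 and 2.90 in wild type and 5.88, 4.49 and 3.25 in knockout. Ppox, which oxidises protoporphyrinogen, read 4.76, 1.29 and 1.52 in wild type and 4.45, 3.11 and 1.46 in knockout. For all 3 genes the highest array was wild-type replicate 1 and the genotypes overlapped.

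Urod, the decarboxylase, read 7.80, 5.50 and 4.85 in wild type and 7.66, 7.25 and 4.52 in knockout, so its level on knockout replicate 2 was close to that of the column 1 arrays. Fech, the ferrochelatase that closes the pathway, read 7.07, 4.20 and 4.99 in wild type and 6.80, 5.82 and 4.70 in knockout. Cpox, coproporphyrinogen oxidase, read 5.92, 3.05 and 2.97 in wild type and 5.36, 4.25 and 4.08 in knockout. Both knockout replicates 2 and 3 lay above wild-type replicates 2 and 3, as they did for Uros and, by a narrow margin, for Alad. In column 1 the knockout differed from wild type by -0.56 for Cpox.

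The tested probes of the synthases differed in pattern. Alas2 read 7.85, 4.88 and 6.65 in wild type and 7.76, 7.11 and 5.61 in knockout, with the same 2 arrays highest. Knockout replicate 2 was the third and wild-type replicate 3 the fourth for this gene. Alas1 read 3.71, 4.52 and 4.08 in wild type and 3.49, 4.54 and 4.16 in knockout. Both column 1 arrays were the lowest of the 6 for this probe, which was so for no other tested member and for 3215 of all 18405 entries. A second, dimmer Alas1 probe read 0.62, -0.39 and 0.42 in wild type and 0.46, -0.02 and -0.17 in knockout, with column 1 highest, so the 2 Alas1 probes disagree.

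**Figure D2:**
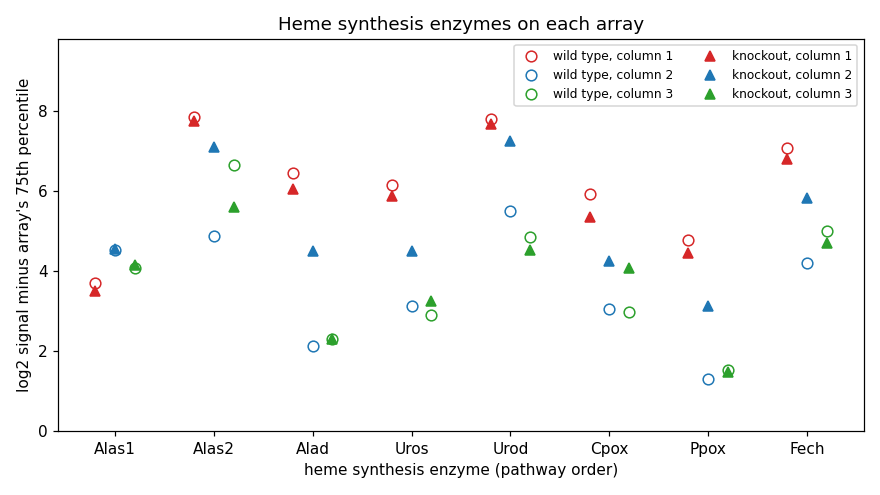
Level of each heme synthesis enzyme (log2 signal after subtraction of the array's 75th percentile) on each array; open circles are wild-type mice, filled triangles knockout mice, and colours the slide columns. For 7 of the 8 enzymes both column 1 arrays lie highest and knockout replicate 2 comes next, and for Alas1 column 1 lies lowest.

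Of the 6 transporters and translocator proteins, 5 had both column 1 arrays highest. Slc25a37, mitoferrin 1, which brings iron into the mitochondrion of erythroid cells, read 7.57, 3.82 and 5.33 in wild type and 7.16, 6.35 and 5.26 in knockout. Its second probe also had column 1 highest. Slc25a38, which carries glycine for the first reaction, read 6.37, 4.60 and 3.92 in wild type and 5.81, 5.24 and 3.12 in knockout. Abcb10, an inner membrane transporter needed for erythroid heme synthesis, read 6.65, 4.12 and 3.02 in wild type and 6.27, 5.21 and 3.45 in knockout. The steps from column 1 to columns 2 and 3 were 1.80 and 3.23 for Abcb10, both larger than the gap between its genotypes.

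Abcb6, a porphyrin transporter, read 3.85, 1.83 and 1.45 in wild type and 3.1, 2.11 and 1.49 in knockout, and its pooled difference was -0.15 ± 0.73 (SE). The translocator proteins Tspo and Tspo2 are related in sequence, Tspo being found in many tissues and Tspo2 mainly in erythroid cells. Tspo2 read 7.19, 3.87 and 3.94 in wild type and 6.92, 6.18 and 3.14 in knockout, a range of 4.06 over the arrays. Tspo read 7.11, 6.09 and 5.44 in wild type and 6.82, 6.85 and 5.45 in knockout, a range of 1.68. For Tspo, replicates 1 and 2 of the knockout were level with each other, and for Tspo2 replicate 1 was the higher.

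The globin probes carried no usable scaled difference. The unscaled signal of Hba-a1, 1 of the 2 adult alpha globin genes, lay between 498115 and 612016 on the 6 arrays, that of Hba-a2 between 502778 and 585714, and that of Hbb-bt, an adult beta globin, between 506398 and 632300. The 3 brightest control probes lay between 425473 and 578685 over the arrays. Signals from 425473 upward are called the top of the signal range here. The globins were in it on 6 of 6 arrays, and 36 of 18405 entries were in it on most arrays. The scanner software marked 0 spots as saturated on each array, and whether the globins lay at a ceiling was not tested. Their unscaled signals varied little, so the levels minus the array percentile follow the percentile. This percentile was lowest on wild-type replicate 3, at 763.9, and highest on replicate 3 of the knockout, at 2664.2. After quantile normalization, Hba-a1 read between 18.76 and 19.20 on all 6 arrays. That method gives the brightest probes of each array nearly the same values, so the narrow range does not show a steady level. The alpha globin copies are nearly identical in sequence, as are the beta copies, so the signal of their probes cannot be assigned to 1 copy with certainty.

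Membrane and membrane skeleton genes ranged widely over the arrays. Add2, beta adducin, which caps actin in the skeleton, read 3.79, -0.32 and -0.55 in wild type and 2.89, 1.59 and -1.22 in knockout. Ank1, the ankyrin that ties spectrin to the anion exchanger, read 2.14, -2.97 and -1.55 in wild type and 1.52, 0.23 and -1.96 in knockout, a range of 5.11. Its unscaled signal was dim on wild-type replicates 2 and 3, at 183 and 260. The lowest spots well above background on these arrays read -4.35 and -2.18. Ank1 was near this level on replicate 3, and dim signal limits its range. Slc4a1, the anion exchanger band 3, read 7.97, 5.49 and 5.57 in wild type and 7.92, 7.25 and 5.50 in knockout. All 4 tested genes of this group had both column 1 arrays highest.

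Epb42, protein 4.2, departed from the common order below the top. Its level was 4.59, -0.15 and 0.61 in wild type and 4.61, 1.62 and 2.18 in knockout, so knockout replicate 3 lay above knockout replicate 2. Column 1 exceeded column 2 by 3.87 ± 0.57 (SE), with a limma adjusted p of 0.171 for the test over the 3 columns. Its genotype difference, 1.12 ± 1.26 (SE), was the largest of the 33 members and smaller than its own error.

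The 5 blood group and other erythroid genes all had both column 1 arrays highest. Rhag, the Rh-associated glycoprotein, read 2.70, -1.54 and -1.73 in wild type and 2.43, -1.61 and -1.29 in knockout. It differed from the other 4 in that knockout replicate 2 was as low as wild-type replicate 2, and column 1 stood 17.2-fold above the other arrays. On wild-type replicate 3 and knockout replicate 2 the lowest spots well above background read -2.18 and -2.32. Rhag was near these levels there, which limits its fold. Rhd, which carries the Rh antigen, read 7.77, 5.24 and 4.72 in wild type and 7.92, 6.93 and 4.47 in knockout. Rhag and Rhd thus read differently on knockout replicate 2, and both read high on the arrays of column 1.

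Kel, the Kell blood group peptidase, read 5.40, 1.06 and 1.61 in wild type and 5.08, 3.74 and 1.81 in knockout. Trim10, a ring finger protein of terminal erythroid maturation, read 6.44, 0.99 and 2.75 in wild type and 6.05, 4.62 and 2.33 in knockout, and its range of 5.45 was the widest of the members. Ermap, the erythroid membrane-associated protein of the Scianna blood group, read 6.01, 2.01 and 1.84 in wild type and 5.41, 4.01 and 2.29 in knockout. A second Ermap probe showed the same order of columns, while the third and dimmest read between -1.69 and 0.45 with no column 1 excess. The carbonic anhydrases, which hydrate carbon dioxide in red cells, both followed the common order. Car1 read 5.26, 1.83 and 2.19 in wild type and 4.57, 4.16 and 2.68 in knockout. Car2 read 8.20, 6.27 and 6.22 in wild type and 8.18, 7.32 and 5.82 in knockout, and on 1 array its signal reached the top range.

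Among the transcription factors, all 4 had both column 1 arrays highest and knockout replicate 2 next. Klf1, which activates beta globin, read 6.03, 1.75 and 2.12 in wild type and 5.74, 4.57 and 1.58 in knockout. Gata1, the erythroid GATA factor, read 5.21, 1.52 and 1.36 in wild type and 4.76, 3.77 and 1.66 in knockout. Tal1, its partner in the erythroid complex, read 5.40, 1.91 and 1.33 in wild type and 5.19, 3.56 and 2.12 in knockout. Columns 1 and 3 differed by 4.03 for Klf1, 3.47 for Gata1 and 3.57 for Tal1.

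Gfi1b, a repressor of erythroid and megakaryocytic cells, read 4.37, -0.14 and 0.53 in wild type and 3.33, 2.13 and 0.18 in knockout, and the knockout differed from wild type by -1.04 in column 1. Epor, the erythropoietin receptor, read 5.30, 4.19 and 4.21 in wild type and 5.03, 3.95 and 3.99 in knockout. Its range of 1.35 was narrower than that of the 4 factors, and knockout replicate 2 did not stand above the low arrays. The knockout mouse differed from the wild-type mouse by -0.27, -0.24 and -0.23 in the 3 columns, and the limma adjusted p with column as a block was 1.

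The series was set up to study Bach2 in heme and iron balance, and the comparison of the genotypes asks whether these genes differed without it. No member did so beyond the spread between mice. At a limma adjusted p of 0.05, 0 of 33 members were called, as were 0.0% of all entries. At an unadjusted p under 0.05 the same test called 0 members and 1.24% of all entries. The median difference of the members, knockout minus wild type, was 0.43 (0.49 without the 3 globins), against -0.11 over all entries. Individual differences of the 30 members other than the globins ran from -0.24 for Epor to 1.12 for Epb42, and 26 of the 30 were above 0, as were 7234 of all 18405.

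No member had every knockout array above every wild-type array, which held for 1.14% of all entries, and none had every knockout array below, which held for 1.74%. For Alad the pooled difference was 0.66 ± 1.29 (SE), for Klf1 0.66 ± 1.33 (SE) and for Gata1 0.70 ± 1.14 (SE), and the limma adjusted p was 1 for all 3 genes. The sign of the median rested on single mice. Without wild-type replicate 1 it was 1.50, and without knockout replicate 3 it was 1.18. In the limma fit without wild-type replicate 1, 10 of 33 members had an unadjusted p under 0.05. So did 808 of all 18405 entries, against 229 with all mice. The median was -0.18 without knockout replicate 1, -0.11 without wild-type replicate 2 and -0.05 without wild-type replicate 3. No member was called at an adjusted p of 0.05 in any of these fits.

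Within the columns, the genotypes differed in no common direction. The median difference of the members was -0.29 in column 1, 1.75 in column 2 and -0.08 in column 3, against -0.13, -0.15 and 0.04 over all entries. In column 1 the knockout mouse was the lower for 28 of the 30 members other than the globins, and for 11364 of all 18405 entries. In column 2 it was the higher for 28 of the 30, the exceptions being Rhag and Epor, and for 7779 of all entries. Trim10 had the widest such gap, at 3.63 in column 2 against -0.39 and -0.43 in columns 1 and 3. With 1 mouse of each genotype in a column, these differences have no replicate check.

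**Figure D3:**
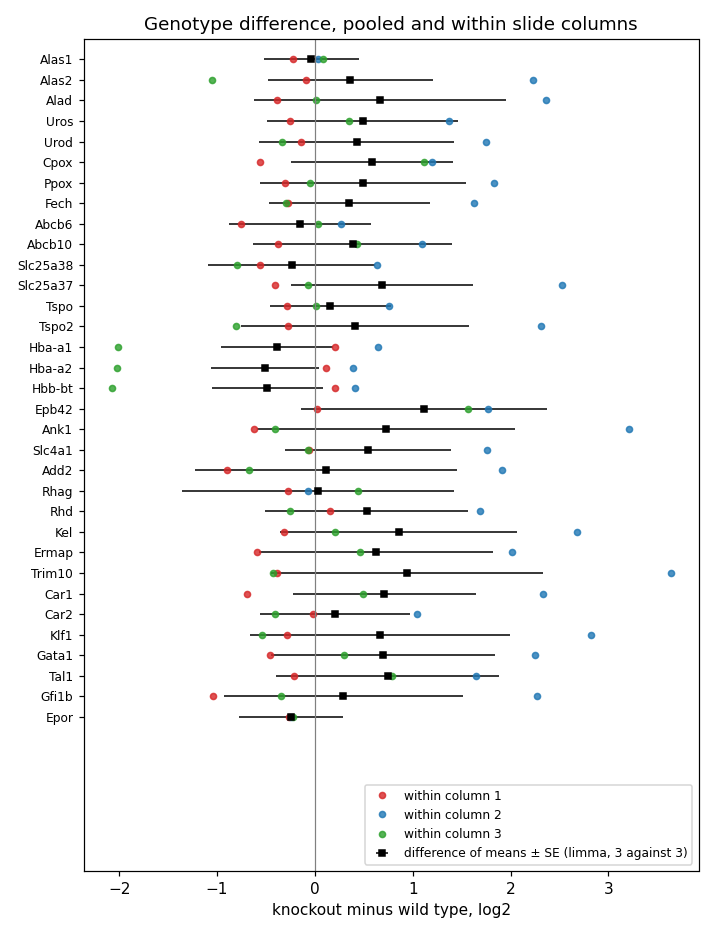
Difference of each member, knockout minus wild type in log2; black squares are the difference of the 3-mouse means with its limma standard error, and coloured points the difference within each slide column. Among the 30 members other than the globins, the column 2 points lie above 0 for 28 and the column 1 points lie below 0 for 28; the globin points follow the array percentile.

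Columns were then compared across both genotypes, with a limma F test of column beside genotype. At an adjusted p of 0.05 this called 0 of 33 members and 0.0% of all entries, and the smallest adjusted p of any member was 0.171. At an unadjusted p under 0.05 it called 26 members, against 18.9% of all entries. The 7 members above that level were Alas1, Alas2, Slc25a37, Epor and the 3 globins. Without wild-type replicate 2 the adjusted test called 18 members (707 entries in all), without knockout replicate 1 it called 12 (390) and without knockout replicate 2 it called 21 (949). In such a fit a column is left with 1 mouse, which is assumed to vary like the others. Without each of the other 3 mice it called 0 members.

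**Figure D4:**
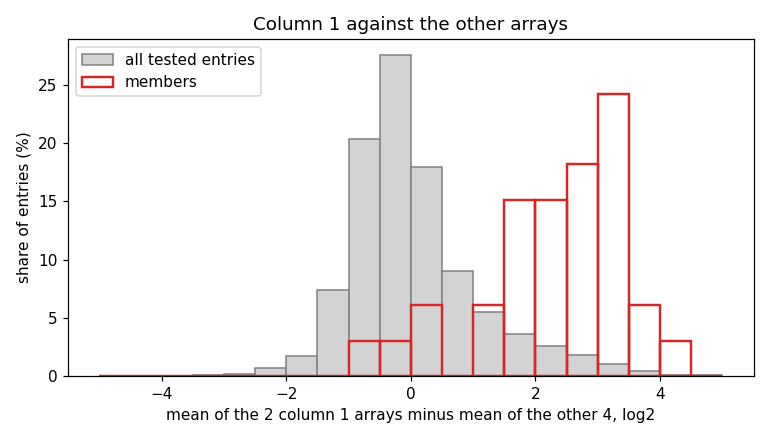
Share of entries, in percent, by the mean of the 2 column 1 arrays minus the mean of the other 4 (log2, bins of 0.5); grey bars are all 18405 tested entries and red outlines the 33 members. The median lies at 2.51 for the members and at -0.13 for all entries.

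Other gene lists were set beside the members on the same arrays. Of 24 tested erythroid genes outside the members, 21 had both column 1 arrays highest, against 15.1% of all entries. The exceptions were Slc2a1, Bpgm and Hbb-y, named after their values were seen. Hemgn, hemogen, varied little, from 5.97 to 6.62. Of 10 tested genes for the handling of heme and its partners, 6 had both column 1 arrays highest, against the same 15.1%.

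All 15 cell cycle genes had both column 1 arrays highest, against 15.1% of all entries, with a median column 1 excess of 2.59. Mki67, a marker of dividing cells, read 7.13, 4.24 and 3.81 in wild type and 7.01, 5.78 and 4.41 in knockout, and Top2a, a topoisomerase of dividing cells, read 2.92, -1.08 and -0.58 in wild type and 2.79, 0.69 and 0.40 in knockout. The mean level of the list relative to its gene means was 1.62 and 1.49 on the column 1 arrays and between -1.39 and 0.18 on the others. The part of dividing cells in the result was not tested.

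None of the lists of other cells had a gene with both column 1 arrays highest, which held for 15.1% of all entries. The counts were 0 of 13 red pulp macrophage genes, 0 of 5 megakaryocyte genes, 0 of 9 neutrophil genes, 0 of 10 T and NK cell genes, 0 of 7 B cell genes and 0 of 2 early progenitor genes. At that share, a count of 0 in lists this short does not set them apart from other entries. The mean of the macrophage list relative to its gene means was -0.28 and -0.41 on the column 1 arrays and from -0.21 to 0.79 on the others. Pf4, platelet factor 4, read 5.07, 5.99 and 2.27 in wild type and 2.57, 4.26 and 1.98 in knockout, so it was highest on wild-type replicate 2. Of the 5 megakaryocyte genes, 3 were highest on that array and 2 on wild-type replicate 1, and the mean of the list relative to its gene means was 0.77 and -0.45 on the wild-type and knockout arrays of column 1 and 1.31 on wild-type replicate 2. Neutrophil and T and NK cell genes were highest on knockout replicate 2, at 1.89 and 1.33 above their gene means, the array on which the erythroid members were intermediate. Whether other cells in the sort played a part in the members' levels was not tested.

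**Figure D5:**
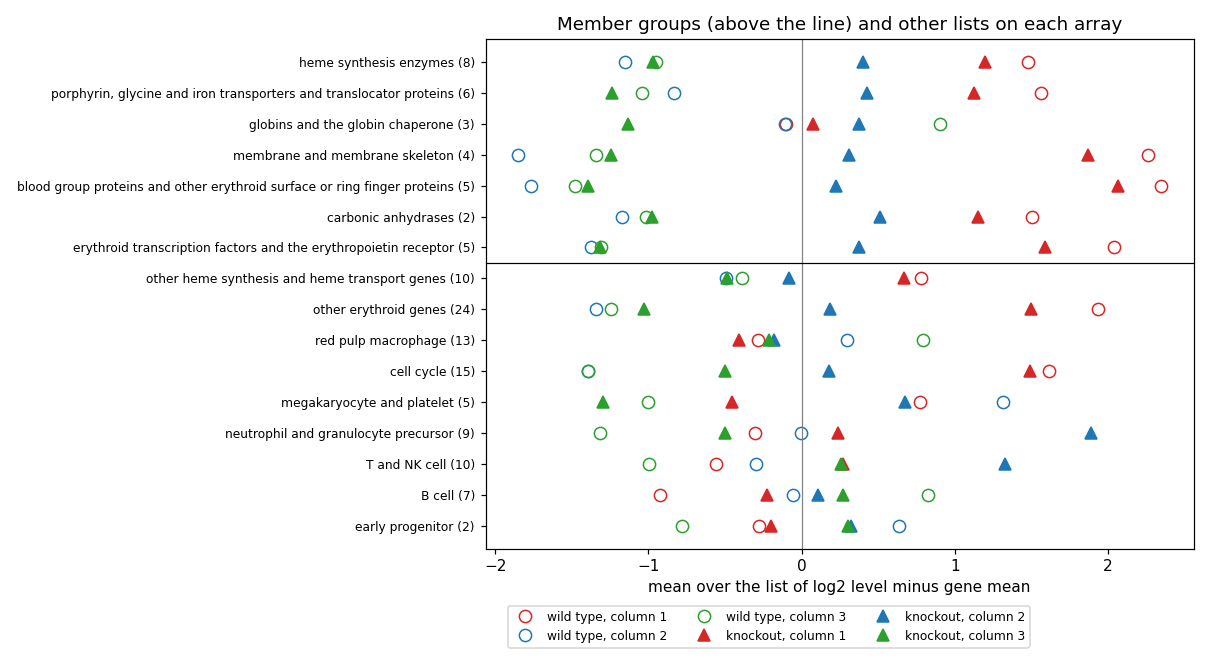
Mean over each list of the log2 level minus the gene's mean over the 6 arrays, with the number of tested genes in brackets; open circles are wild-type and filled triangles knockout mice, and colours the slide columns. The member groups other than the globins, the other heme and erythroid genes and the cell cycle genes lie highest on both column 1 arrays, and the remaining cell lists do not.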

How the data were processed

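The authors deposited 1 scanner file of spot intensity per array. It was made with Agilent Feature Extraction, whose version is given as 10.7.3.1 in the headers and as 9.1 in the submitters' processing notes. Background was subtracted within each array, per the file headers, and no scaling between arrays was seen in the values. The authors' deposited table of log2 values covers 279 probes, none of them a member's, and was not used for results. Spots flagged as outliers (141 to 283 per array) were left out and spots of a probe averaged. Probes (55681) were named by accession through a RefSeq gene table of GRCm38, which named 26413. Levels are log2 of the processed signal minus the array's 75th percentile. Probes well above background on at least 3 arrays were tested, with 1 probe per gene, the one with the highest mean. Genotypes and columns were compared with limma 3.58.1 in R 4.3.3, with Benjamini-Hochberg adjustment over 18405 entries, at an adjusted p of 0.05. The test code was tested on simulated data. Members and lists were chosen with earlier results of these data known. The named genes are the 36 members, Bach2 and 11 context genes, some of which are not reported here. The alternatives were quantile normalization, normexp with an offset of 50 (on the median spot signal, since the files hold no mean signal), another percentile, no filter, column as a block, other probes, and leaving out mice. The number of arrays limits the precision, and the replicates are separate mice.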

Additional observations from a re-analysis of the deposited data

How the results depend on the processing

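No member and no entry was called for genotype under any alternative run. The median difference of the members lay between 0.42 and 0.76 under settings that kept the balance of mice, and between -0.18 and 1.50 when 1 mouse was left out. The median over all entries was -0.11 with the 75th percentile and -0.01 after quantile normalization, and the members exceeded it by 0.53 in both. Signs turned for few members when the processing changed. Quantile normalization gave 0.031 for Hba-a2, 0.13 for Hba-a1 and 0.057 for Alas1, and the percentile over detected probes gave 0.059 for Alas1. Without both P6 mice, Rhag was -0.17, Hba-a2 0.25, Hba-a1 0.42, Slc25a38 0.040 and Hbb-bt 0.31. Without both column 1 mice, an alternative chosen after seeing the data, Abcb6 was 0.15 and Alas1 0.053. The dimmest Ermap probe gave -0.35. Leaving out 1 mouse turned the sign of 25 members, whose ranges were -0.40 to 1.41 for Abcb10, -0.61 to 0.59 for Abcb6, -0.79 to 1.52 for Add2, -0.22 to 2.08 for Alad, -0.28 to 0.25 for Alas1, -0.43 to 1.06 for Alas2, -0.36 to 2.19 for Ank1, -0.33 to 0.86 for Car2, -0.60 to 0.12 for Epor, -0.13 to 1.99 for Ermap, -0.26 to 1.18 for Fech, -0.57 to 1.68 for Gfi1b, -0.71 to 0.089 for Hba-a1. They were -0.23 to 2.03 for Klf1, -0.23 to 1.61 for Ppox, -1.26 to 1.48 for Rhag, -0.21 to 1.51 for Rhd, -0.19 to 1.68 for Slc25a37, -0.78 to 0.56 for Slc25a38, -0.038 to 2.0 for Tal1, -0.26 to 2.46 for Trim10, -0.23 to 0.62 for Tspo, -0.34 to 1.55 for Tspo2, -0.17 to 1.40 for Urod, -0.18 to 1.53 for Uros. Column calls among the members were 0 under quantile normalization, normexp, the other percentile and no filter, and 0 to 21 when 1 mouse was left out. The cause was not tested. After quantile normalization, 29 of 33 members had both column 1 arrays highest, against 15.9% of all entries. The authors' table could not be used as an alternative because it holds 0 member probes. The labels share only the tag P6 across the genotypes and so do not pair the mice. With array column as a block, which pairs them by place on the slide, limma called 0 members and 0 entries at an adjusted p of 0.05, and 0 members and 581 entries at an unadjusted p under 0.05, against 229 entries without it. Signals at the top of the range limit the globins, whose signs above follow the array percentile and are not read as differences, and dim signal limits Sptb.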
